A study of Bos taurus with 12 samples.

Results

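The genes described here are 10 regulators of cell cycle exit, taken by symbol from the deposited expression table: the CDK inhibitors CDKN1A, CDKN1B, CDKN1C and CDKN2C, the pocket proteins RB1, RBL1 and RBL2, and the transcription factors E2F1, E2F4 and E2F8. All 10 were found among the 18436 genes of the table, and all 10 passed the filter on low values. The cells were primary skeletal myoblasts of newborn Qinchuan cattle, isolated from the longissimus dorsi muscle, per the study from a single animal. The GM group was kept proliferating in growth medium with 20% fetal bovine serum and was collected at 80% confluence. The DM group, per its labels, was grown to 100% confluence and then kept for 4 days in differentiation medium with 2% horse serum. In that medium myoblasts fuse into myotubes. The study's methods instead give 80% confluence before the change of medium. The labels name no genetic change in either group. From each of 3 cultures a group came 1 input library of poly(A) RNA and 1 library of RNA fragments precipitated with an antibody against N6-methyladenosine (m6A), so that 12 libraries were made. The comparison asks how the mRNA and its m6A marks differ between growing myoblasts and day 4 myotubes.

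A myoblast that becomes a myotube leaves the cell cycle for good. CDK inhibitors block the cyclin-dependent kinases. Without that kinase activity the pocket proteins stay unphosphorylated, bind E2F factors and keep the genes for DNA replication and division silent. RB1 mainly holds the activating factors such as E2F1, whereas RBL1 and RBL2 pair with E2F4 in repressor complexes, of which the DREAM complex with the MuvB core is the best known. E2F8 represses without a pocket protein and is itself an E2F target made in S phase.

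The input libraries gave 1 FPKM value per gene and library, that is, fragments corrected for transcript length and for the mapped fragments of the library, a scale on which levels can be compared between genes. Sequencing depth cannot be read from FPKM, so no counting interval is given. Within a group the libraries correlated at r of 0.991 to 0.996 across genes, and between groups at 0.964 to 0.967. Each gene with a mean of at least 0.5 FPKM, 12302 in all, was fitted with limma on log2(FPKM + 1). A gene passed at an adjusted p under 0.05 and was called where its fold change on that scale was also over 1.5. Fold changes on this scale understate the change of genes at a few FPKM or less, and most so near or below 1 FPKM. The p-values measure only the spread between these cultures. In such bulk RNA, fewer cells of a type and less RNA per cell cannot be told apart.

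The myogenic markers were present in both groups, and 3 of 10 were called higher in DM and 4 lower. CKM, muscle creatine kinase, rose from 10.2 to 42.5 FPKM, and MYH3, embryonic myosin heavy chain, from 273 to 659 FPKM. ACTA1, skeletal muscle actin, went the other way and fell from 110.2 to 70 FPKM (log2 fold change -0.64, called lower). MYOD1 and MYF5, factors of the myoblast stage, fell from 61.6 to 24.8 FPKM and from 11.8 to 2.25 FPKM. MYOG, the myogenin gene, whose product drives differentiation, was already at 197 ± 8.95 FPKM in GM (SD, n = 3). It rose to 243 ± 14.9 FPKM in DM (log2 fold change 0.31), which passed but was not called. PAX7, the satellite cell factor, fell from 1.08 to 0.0624 FPKM. MKI67 and TOP2A, markers of dividing cells, fell from 17.8 to 0.895 FPKM and from 19.5 to 1.14 FPKM. These differences stand beside every result below. The fibroblast markers were abundant, with a sum of 10282 to 10429 FPKM in GM and of 11633 to 12197 FPKM in DM. Of these 6 markers 3 passed higher in DM, none was called, and none was at 0. The part of either marker group in the results below was not tested. The sums were at most 2.01 FPKM for the adipocyte, endothelial and leukocyte markers.

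Among the 10 genes, 2 passed higher in DM, against 16.1% of all tested genes, and 6 passed lower, against 26.7% of all tested genes. Of these, none was called higher, where the background was 4.89%, and 3 were called lower, where the background was 6.88%: CDKN1C, CDKN2C and E2F8. The 3 DM libraries all lay above the 3 GM libraries for 2 genes (21.1% of all tested genes) and all below them for 6 genes (33.0%). The median log2 fold change was -0.34 over the 10 genes and -0.05 over all tested genes. When each library was rescaled to the same sum (TPM), the median of all tested genes moved to 0.06, and the share of higher among all called genes moved from 41.6% to 55.5%. CDKN1B and E2F4 did not pass in either direction.

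**Figure D1:**
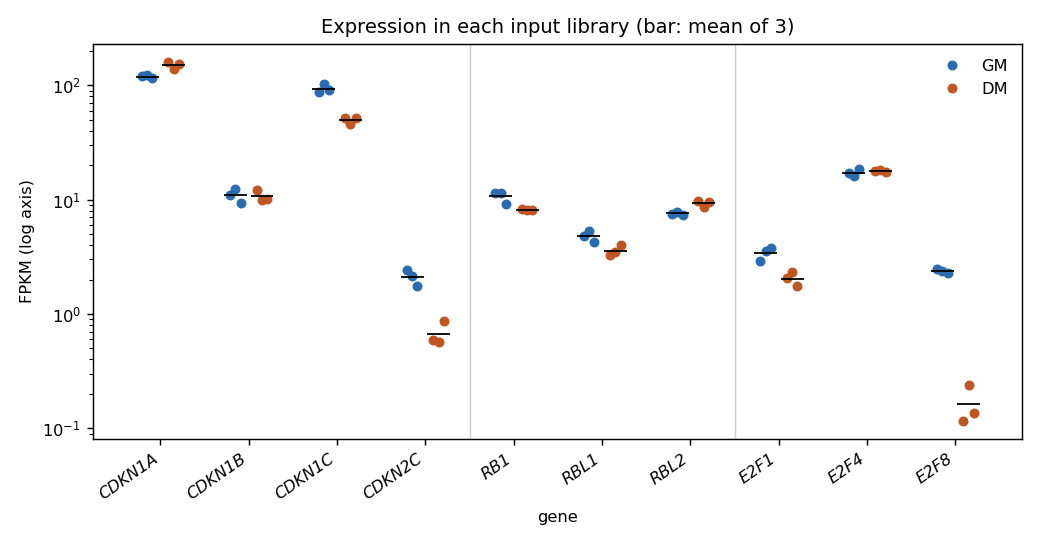
Expression of the 10 genes in each input library, in FPKM on a log axis, with blue points for GM, orange points for DM and a bar at the mean of 3 libraries; grey lines separate CDK inhibitors, pocket proteins and E2F factors. The groups overlap for CDKN1B and E2F4 only, and the widest gap is that of E2F8, from 2.39 FPKM in GM to 0.164 FPKM in DM.

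CDKN1A encodes p21, a broad inhibitor of cyclin-dependent kinases that MYOD1 is known to induce (ENSBTAG00000008353, ARS-UCD1.2 chr23:10582308-10590589, plus strand). Its level was 119.5, 123.4 and 114.8 FPKM in the GM libraries and 160.2, 138.6 and 153.2 FPKM in the DM libraries. Every DM culture lay above every GM culture, although the GM level was already the highest of the 10 genes. The means were 119 ± 4.27 and 151 ± 11 FPKM (SD, n = 3 each), a log2 fold change of 0.33 (SE 0.063, adjusted p = 3.5e-03). The rise passed the test but was too small for a call. It passed under all 16 alternative settings tried. Those of the unadjusted p and the fold threshold left its adjusted p unchanged and could not fail.

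CDKN1C encodes p57, the inhibitor of the same family that comes from an imprinted gene and acts in muscle precursors (ENSBTAG00000031184, chr29:48728420-48730918, plus strand). The GM libraries held 88.2, 101.8 and 90.7 FPKM and the DM libraries 51.5, 46.2 and 51.7 FPKM. All DM values lay far below all GM values. Mean levels of 93.6 ± 7.24 and 49.8 ± 3.12 FPKM gave a log2 fold change of -0.90 (SE 0.071, adjusted p = 3.1e-05), and CDKN1C was called lower. CDKN1A and CDKN1C, related inhibitors of like abundance in GM, thus moved in opposite directions.

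CDKN1B encodes p27, the inhibitor whose protein is removed by the SKP2 ubiquitin ligase when cells enter S phase (ENSBTAG00000018254, chr5:97104351-97109627, minus strand). It was measured at 11, 12.4 and 9.43 FPKM in GM and at 12.1, 9.92 and 10.1 FPKM in DM, with overlapping groups. The log2 fold change was -0.02 with a 95% interval from -0.27 to 0.22 (adjusted p = 0.88), and its sign turned under other scalings. A difference of the size seen for CDKN1C lies outside that interval.

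CDKN2C encodes p18, an INK4 inhibitor that binds CDK4 and CDK6 (ENSBTAG00000011059, chr3:95337691-95342769, minus strand). Its GM libraries showed 2.41, 2.15 and 1.75 FPKM, and its DM libraries 0.588, 0.572 and 0.861 FPKM. The groups were well apart although the gene was the least abundant inhibitor. The mean FPKM was 3.13 times higher in GM, and the log2 fold change was -0.89 (SE 0.109, adjusted p = 3.4e-04), so CDKN2C was called lower.

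The summed FPKM of the 4 inhibitors was 226 ± 12.2 in GM and 212 ± 15 in DM, with overlapping libraries, while its make-up differed. CDKN1A made up 52.8% ± 1.30 of the sum in GM and 71.1% ± 0.232 in DM. The share of CDKN1C was 41.4% ± 1.35 in GM and 23.5% ± 0.506 in DM (SD, n = 3 cultures each). Within a library the ratio of CDKN1A to CDKN1C ran from 1.21 to 1.35 in GM and from 2.96 to 3.11 in DM. This ratio was chosen after the values were seen. Its separation follows from that of both genes and is no further result.

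Of the pocket proteins, RB1 and RBL1 fell and RBL2 rose. RB1, the retinoblastoma gene, whose product is the main brake on activating E2F factors (ENSBTAG00000006640, chr12:18118566-18238934, plus strand), was at 11.4, 11.5 and 9.17 FPKM in GM and at 8.28, 8.11 and 8.16 FPKM in DM. Its DM libraries were nearly equal and lay below all GM libraries. RB1 fell by 0.34 on the log2 scale (SE 0.086, adjusted p = 1.2e-02) and was not called, and with TPM the adjusted p was 8.8e-02.

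RBL1 encodes p107, the pocket protein that is itself an E2F target and is abundant in cycling cells (ENSBTAG00000011541, chr13:66015527-66074535, minus strand). The levels were 4.85, 5.35 and 4.29 FPKM in GM and 3.30, 3.48 and 3.99 FPKM in DM, without overlap but with DM replicate 3 close to the lowest GM culture. RBL1 fell by 0.34 on the log2 scale (SE 0.090, adjusted p = 1.6e-02). The test was missed with TPM (adjusted p = 7.9e-02), without GM replicate 2 (5.3e-02) and without DM replicate 1 (6.1e-02), in each case in the same direction.

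RBL2 encodes p130, the pocket protein that prevails in quiescent and differentiated cells (ENSBTAG00000016243, chr18:21801909-21848069, plus strand). It was at 7.56, 7.86 and 7.33 FPKM in GM and at 9.80, 8.67 and 9.47 FPKM in DM, with all DM cultures above all GM cultures. RBL2 rose by 0.26 on the log2 scale (SE 0.063, adjusted p = 1.0e-02) and was not called. It passed under all 16 settings, with the same limit as for CDKN1A. At its 3′ end RBL2 overlaps AKTIP, a gene on the opposite strand that was at 9.27 FPKM in GM and 11.8 FPKM in DM. The libraries were made strand-specific, but whether the counting used strand is not given in the sources used here.

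The ratios of the pocket proteins were likewise chosen after the values were seen. Since RBL2 was higher and RBL1 lower in every DM library, the ratio of p130 to p107 mRNA had to lie apart as well. The ratio of RBL2 to RBL1 ran from 1.47 to 1.71 in the GM libraries and from 2.37 to 2.97 in the DM libraries. The ratio of RB1 to RBL1 was 2.22 ± 0.124 in GM and 2.30 ± 0.235 in DM, with overlapping libraries. In order of level, RB1 stood above RBL2 in GM and below it in DM, and in neither group did the libraries of these genes overlap.

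E2F1, the activating factor that RB1 binds (ENSBTAG00000003971, chr13:63129139-63138330, minus strand), was at 2.88, 3.57 and 3.74 FPKM in GM and at 2.05, 2.33 and 1.74 FPKM in DM. No DM library reached the lowest GM library. E2F1 fell by 0.53 on the log2(FPKM + 1) scale (SE 0.104, adjusted p = 4.0e-03), just short of the fold needed for a call on that scale. The mean FPKM itself was 1.67 times higher in GM. With a pseudocount of 0.5 the change was -0.62 and was called, as it was without GM replicate 1 and without DM replicate 2.

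E2F4, the factor that carries RBL1 and RBL2 to promoters in resting cells (ENSBTAG00000012063, chr18:34827984-34834624, plus strand), was at 17.2, 16.1 and 18.6 FPKM in GM and at 18.0, 18.1 and 17.4 FPKM in DM. The groups overlapped, and the log2 fold change was 0.04 with a 95% interval from -0.10 to 0.19 (adjusted p = 0.60). With TPM it was 0.17 (adjusted p = 5.3e-02), the nearest to the threshold of all settings. In both groups E2F4 was the most abundant of the 3 E2F factors.

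E2F8, the atypical repressor (ENSBTAG00000017446, chr29:25699093-25717254, plus strand), showed the largest change of the 10 genes. It stood at 2.50, 2.39 and 2.28 FPKM in GM and at 0.117, 0.240 and 0.136 FPKM in DM. The mean FPKM was 14.6 times higher in GM, and the log2 fold change was -1.54 (SE 0.080, adjusted p = 3.0e-06), lower than in all but 0.878% of tested genes. E2F7, its closest relative, was under the filter and was not tested, with 0.649 ± 0.0436 FPKM in GM and 0.0935 ± 0.0460 FPKM in DM. E2F2 was likewise under the filter, with 0.529 ± 0.114 and 0.255 ± 0.0355 FPKM.

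The E2F factors were also set against each other as ratios within a library. The ratio of E2F4 to E2F1 was 5.14 ± 0.741 in GM and 8.84 ± 1.10 in DM, and that of E2F1 to E2F8 was 1.43 ± 0.249 in GM and 13.4 ± 3.93 in DM (SD, n = 3 cultures each). For both ratios every DM library lay above every GM library. This separation follows from the levels of the single genes and is no further result. In DM the ratio of E2F1 to E2F8 rests on an E2F8 level of 0.164 FPKM. These ratios were chosen after the values were seen and are given without a test.

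**Figure D2:**
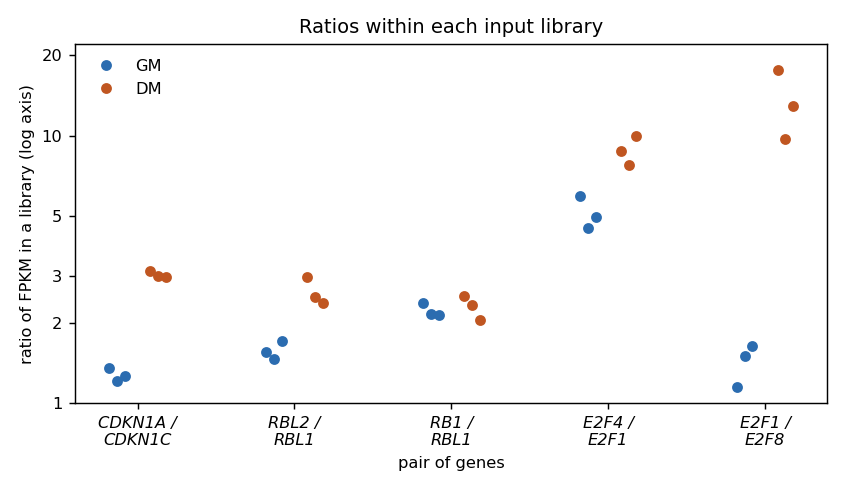
Ratios of FPKM between pairs of the 10 genes within each input library, on a log axis, with blue points for GM and orange points for DM. The DM libraries lie above the GM libraries in 4 of the 5 pairs, and the ratio of RB1 to RBL1 overlaps, with means of 2.22 and 2.30. In each of the 4 pairs the gap follows from the levels of the single genes and is no further result.

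The order of levels was nearly fixed at the top and moved at the bottom. In GM it ran CDKN1A, CDKN1C, E2F4, CDKN1B, RB1, RBL2, RBL1, E2F1, E2F8 and CDKN2C, and only the neighbours CDKN1B and RB1 and the neighbours E2F8 and CDKN2C had overlapping libraries. In DM the order was CDKN1A, CDKN1C, E2F4, CDKN1B, RBL2, RB1, RBL1, E2F1, CDKN2C and E2F8, with no overlap between neighbours. The tested genes with the most similar profile to each called gene, by the root mean square distance of centred log2(FPKM + 1) over the 6 input libraries, were OCIAD2 (0.043) and FITM1 (0.053) for CDKN1C, CTNNA3 (0.054) and STIL (0.055) for CDKN2C, and ASF1B (0.042) and KIF15 (0.044) for E2F8.

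The genes that act beside these regulators moved mostly downward. Across 7 pathway lists holding 58 genes, 54 were tested. Of these 54 genes, 4 passed higher and 37 passed lower, beside 16.1% and 26.7% of all tested genes. The median log2 fold change of the 54 genes was -0.47. Of the 54 genes, 1 was called higher and 21 lower, beside the 4.89% and 6.88% of all tested genes. The counts of single lists below stand beside the same shares, and no list was tested against them. The lists were compiled with earlier results of these data known.

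The E2F target genes made up the largest group. Of 20 tested targets 19 passed lower and 16 were called. The median log2 fold change was -0.83, and the summed FPKM ran from 245 to 263 in GM and from 114 to 121 in DM. MYBL2, the B-Myb factor of cycling cells, fell from 19.6 to 2.10 FPKM (log2 fold change -2.74), and CCNA2, cyclin A2, from 17.4 to 2.41 FPKM (-2.43). RRM2, a ribonucleotide reductase subunit, fell from 26.0 to 4.61 FPKM (-2.24), and CDK1, the mitotic kinase, from 5.15 to 1.01 FPKM (-1.62).

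Of 8 tested genes of the DREAM and MuvB list 2 passed higher and 5 lower. The called genes were MYBL2 and FOXM1, the factors that MuvB joins when genes of the G2 and M phases are switched on, and FOXM1 fell from 1.99 to 0.144 FPKM (-1.39). Among 9 G1 cyclins and CDKs 7 passed lower and none higher, and CCND2, cyclin D2, fell from 33.5 to 13.4 FPKM (-1.26). CDC25A, the phosphatase that activates CDK2, fell from 4.45 to 1.86 FPKM (-0.93).

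In the p27 turnover list 3 of 5 genes passed lower. CKS1B, the cofactor SKP2 needs to bind p27, fell from 30.7 to 12 FPKM (-1.29), and its relative CKS2 from 33.9 to 3.70 FPKM (-2.88), next to the level of CDKN1B given above. In a list of MDM2 and growth arrest genes 1 of 6 genes passed higher and 1 passed lower. The higher gene was MDM2, a ubiquitin ligase, which rose from 21.1 to 32.7 FPKM (0.61, adjusted p = 5.5e-04 by limma). It was the single called gene that went up, but the fold fell short of a call without GM replicate 3, without DM replicate 1 and without DM replicate 3. The other CDK inhibitors (1 of 2 passed lower) and the other E2F and DP factors (1 of 5 passed higher and 2 lower) held no called gene.

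**Figure D3:**
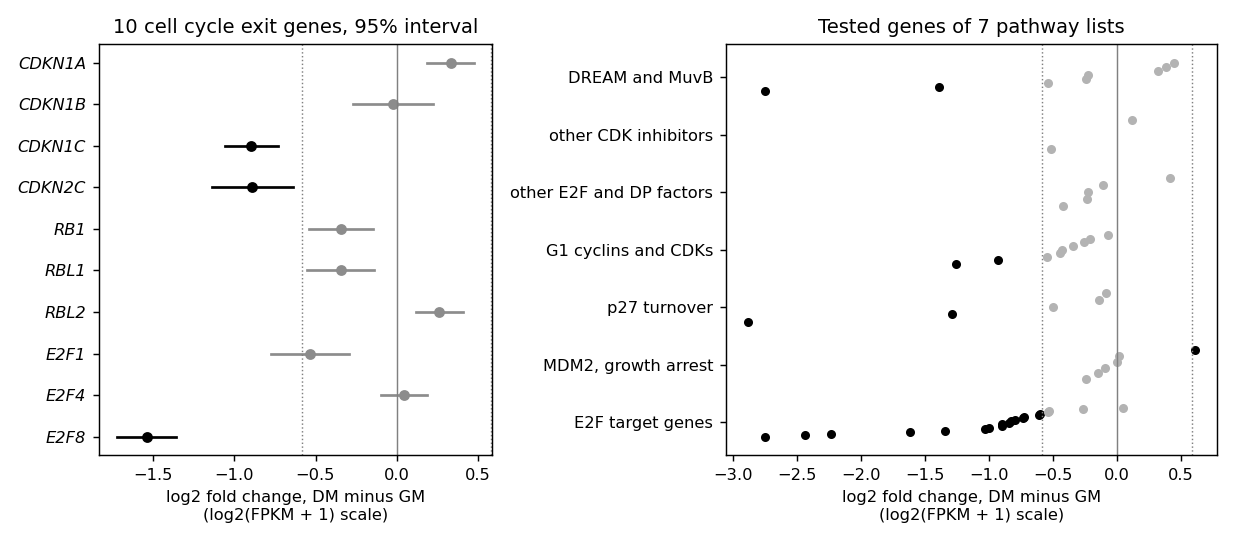
Log2 fold changes, DM minus GM, on the log2(FPKM + 1) scale: left, the 10 genes with 95% intervals; right, the 54 tested genes of the 7 pathway lists, with MYBL2 shown in 2 lists. Black marks called genes, grey the others, and dotted lines mark a fold of 1.5; E2F8 lies at -1.54, and MDM2 is the single black point on the right of 0.

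The second measurement was m6A, a methyl mark on adenosines of mRNA that reader proteins bind and that is known mostly from the region around the stop codon and from 3′ UTRs. A peak is a stretch of exons over which precipitated reads exceed input reads, and its fold enrichment is the ratio of both. The 3 cultures of a group were pooled for the peak lists, so each peak has 1 value per group, with no error and no test. The lists held 19739 peaks in GM, with a median fold enrichment of 3.27, and 20790 in DM, with a median of 3.38. A GM peak was listed for 70.9% of the tested genes and a DM peak for 78.7%.

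Of the 10 genes 7 had a peak in GM and 8 in DM, with 12 peaks in GM and 14 in DM. In GM 5 of these were annotated to a 3′ UTR, 2 to a 5′ UTR and 5 to another exon, and in DM 8 were annotated to a 3′ UTR and 6 to another exon. In each list 10 had a false discovery rate (FDR) under 0.05. Without the peaks named RB1 that lie inside LPAR6, a gene nested in RB1, 10 peaks were left in GM and 12 in DM. A 5′ UTR peak of GM is among those left out. RBL1 and RBL2 had no peak in either list. Of the 4231 tested genes at 3 to 11 FPKM, the range of the pocket proteins, 16.0% had none in both lists.

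Peaks of both lists that shared at least 1 base of exon were paired, and 10 one-to-one pairs were found. Of these, 4 had a fold enrichment over 1.5 times higher in DM, against 14.2% of all 10239 pairs, and 1 over 1.5 times lower, against 10.8%. Where the shared bases had to cover 50% or more of each peak, 5 pairs were left and 1 of them was higher. With ratios centred on the median of all pairs, the counts of the 10 genes stayed at 4 and 1, but those of all pairs went from 1458 higher and 1104 lower to 1193 higher and 1317 lower. The higher pairs belonged to CDKN1B, E2F4 and E2F8, which had 2. The lower pair carried the name RB1 but lay inside LPAR6. Over all pairs the log2 ratio had a median of 0.07.

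E2F4 combined an mRNA level that did not pass the test with one of the larger differences in m6A. Its 3′ UTR peak covered chr18:34834145-34834564 in GM, with a fold enrichment of 2.43 (FDR 2.0e-34), and chr18:34834265-34834624 in DM, with 5.96 (FDR 5.0e-27). These peaks shared 300 bases. The DM value was 2.45 times the GM value, higher than in 96.9% of all pairs.

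CDKN1A carried the same 447 bases at its 3′ end in both lists, chr23:10590143-10590589, with 2.60 in GM (FDR 1.0e-176) and 2.51 in DM (FDR 1.0e-145). These were the lowest FDRs of the 10 genes, while the fold enrichments were below the median of each list. CDKN1C had a peak in DM only, at chr29:48730652-48730918 in the 3′ UTR, with 2.05 (FDR 1.3e-45), although its mRNA was lower there. A peak in the DM list alone was held by 10.1% of tested genes.

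For CDKN1B the GM peak covered 209 exon bases between chr5:97107998 and 97108763, with 1.51, and the DM peak 1073 exon bases between chr5:97105096 and 97108882, with 2.58. The DM peak held all bases of the GM peak, which made up 19.5% of it, and reached into the 3′ UTR. The fold enrichments therefore refer to stretches of unequal length. CDKN2C had the highest enrichment among the inhibitors, 4.09 in GM and 4.85 in DM over 448 shared exon bases, while its mRNA was 3.13 times higher in GM. Its peaks covered 657 exon bases in GM (FDR 5.0e-36) and 448 in DM (FDR 1.3e-16). The DM value rests on an input level of 0.674 FPKM, and the part of this low input was not tested.

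**Figure D4:**
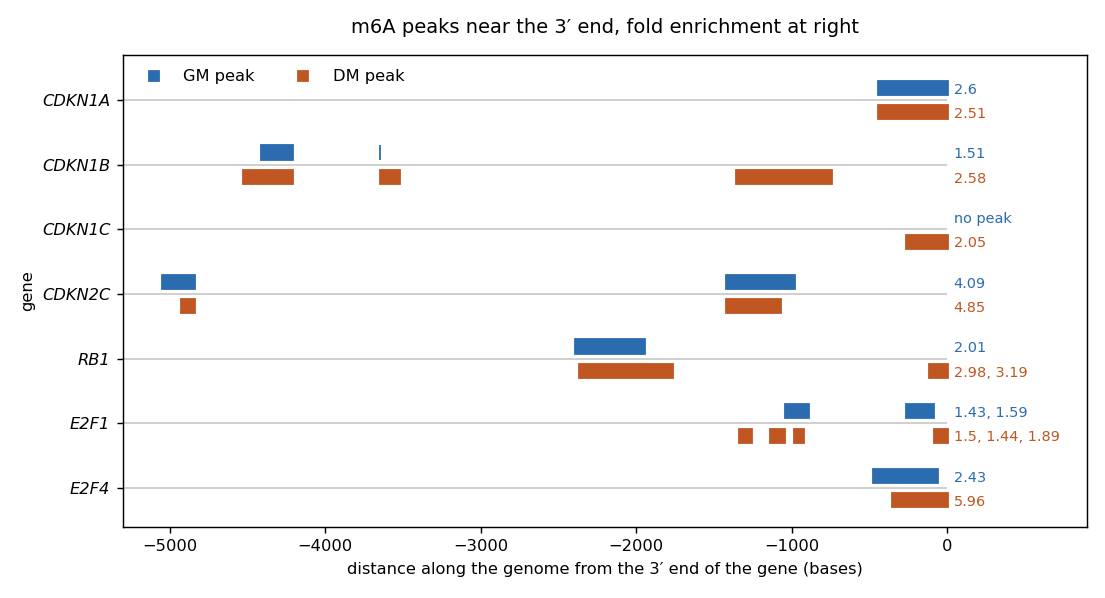
Exon stretches of the m6A peaks of 7 genes by distance from the 3′ end of the gene, in bases along the genome, with blue for GM and orange for DM; numbers at the right give the fold enrichments from left to right. CDKN1A has the same stretch in both groups, CDKN1C has one in DM only, and E2F4 is at 2.43 in GM and 5.96 in DM; the RB1 peaks inside LPAR6 lie outside the window.

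RB1 had 3 peaks in GM and 4 in DM. The 3′ UTR peak was at 2.01 in GM (chr12:18236537-18236986) and 2.98 in DM (chr12:18236567-18237166) over 420 shared bases, and a further DM peak of 121 bases at the gene's end had 3.19. The other pairs, at 4.36 and 2.31 and at 3.05 and 4.47, lie within LPAR6, a gene nested in RB1 on the opposite strand (chr12:18204042-18205891) that was at 0.309 FPKM in GM and 0.278 FPKM in DM. The lists give all of them the gene name RB1, but the DM peak at chr12:18204728-18205354, with 4.47, is annotated to the LPAR6 identifier. The pair at 4.36 and 2.31 begins at the start coordinate of LPAR6 in both lists. In GM its peak, annotated to a 3′ UTR, lies at a lower coordinate than the peak at 3.05, annotated to a 5′ UTR. That is the order along a minus-strand gene such as LPAR6, and the reverse of the order along RB1. Which gene these peaks belong to was not tested further. Without the peaks inside LPAR6 the 10 genes had 10 peaks in GM and 12 in DM, and no lower pair was left.

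Enrichment of E2F1 was low in both groups. The 3′ UTR pair, with 1.59 and 1.89, shared 1 base. An exon peak of 1.43 in GM overlapped 2 DM peaks of 1.5 and 1.44 and so formed no one-to-one pair. The 3 DM peaks of E2F1 had FDRs from 5.8e-02 to 1.1e-01.

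E2F8 had 3 peaks in GM and 2 in DM, all in exons. One pair was at 2.68 in GM (chr29:25710636-25716314, 983 exon bases, FDR 6.3e-09) and 7.45 in DM (chr29:25710607-25711163, 298 exon bases, FDR 4.9e-03), over 269 shared bases. The other was at 1.52 and 3.73, with FDRs of 6.9e-02 and 1.0e-01. Another GM peak, at 1.74, had no partner. The DM values rest on an input level of 0.164 FPKM, and the part of this low input in the ratios was not tested.

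**Figure D5:**
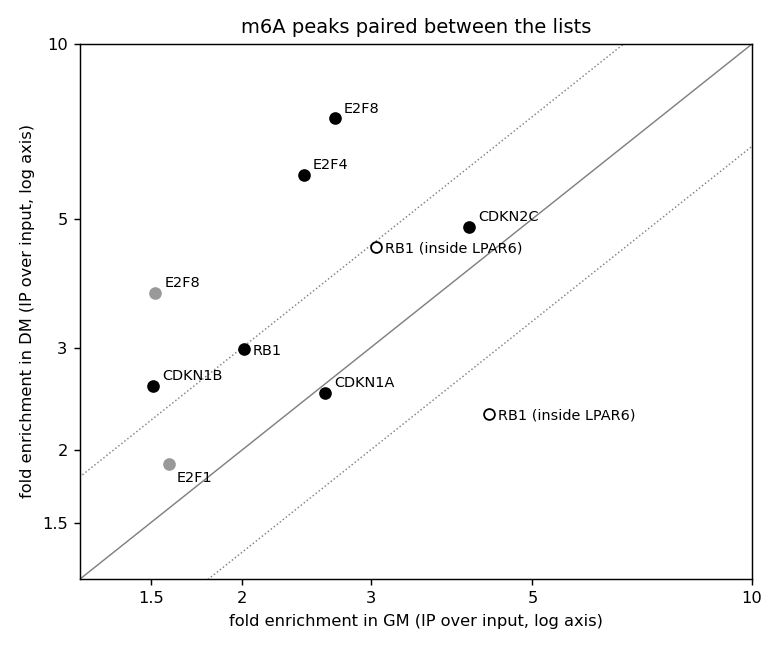
Fold enrichment of the 10 one-to-one peak pairs, GM on the horizontal and DM on the vertical axis, both on log axes; the solid line marks equal values and the dotted lines a ratio of 1.5. Black points have an FDR under 0.05 in both lists, grey points do not, and open points are RB1 peaks inside LPAR6; E2F4 and E2F8 lie farthest above the line.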

How the data were processed

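The authors sequenced strand-specific libraries and processed them with cutadapt, fastp, HISAT2, StringTie, ChIPseeker and HOMER, named without versions in the submitters' processing notes, against ARS-UCD1.2. The deposited FPKM of the 6 input libraries came from StringTie. The deposited m6A lists came from exomePeak on the pooled libraries of a group and give, per peak, the fold enrichment (ratio of precipitated to input reads) and a log10 FDR. The authors tested counts with edgeR; only the FPKM were used here.

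FPKM were analysed in R 4.3.3 with limma 3.58.1 (lmFit, eBayes with trend) on log2(FPKM + 1), 3 GM against 3 DM, leaving out genes whose mean was under 0.5 FPKM, with Benjamini-Hochberg adjustment over all 12302 genes. The fit was tested on simulated data. Peaks were paired in Python 3.11.15 by exon overlap on the same strand. Samples were not treated as paired in the main fit. Deviations of libraries with the same replicate number correlated at -0.0792, -0.123 and -0.208. Deviations from a mean of 3 libraries are tied to each other, so these values cannot decide whether the cultures were paired.

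The genes, lists and tests were chosen with earlier results of these data known. Named were the 10 genes, every called gene of a pathway list (the 4 with the largest fold change where over 6 were called) and the 2 nearest profiles of each called gene. CDKN2A, POLA1, KDR and PTPRC had no row under these symbols. No sequences are shown, since no genome of the build of the files was used here. Values of 2 genes of the pathway lists are not reported here.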

Additional observations from a re-analysis of the deposited data

How the results depend on the processing

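Of 159 fold changes of the 10 genes under alternative settings, 147 kept their direction and their side of the call. Alternatives of filter, replicate block, variance trend, p-value and fold threshold left the fold change itself as it was. Under these only the call could move, so the tally overstates how far directions were tried. The calls of CDKN1C (-0.90) and CDKN2C (-0.89) were lost at a fold over 2, which left 1 gene called lower, 11 pathway genes called lower and 0 called higher. E2F1 was called with a pseudocount of 0.1 (-0.71) and of 0.5 (-0.62), and ranged from -0.62 to -0.46 when single replicates were left out. CDKN1B turned to 0.10 with TPM and to 0.034 with size factors and ranged from -0.12 to 0.062 without single replicates. E2F4 ranged from -0.0028, without GM replicate 2, to 0.095 there, and was 0.17 with TPM and 0.11 with size factors. Neither passed under any alternative. The pathway genes called higher ranged from 0 to 1 without single replicates. With a pseudocount of 0.1, 808 of all tested genes were called higher and 1140 lower; with TPM 960 and 769, against 602 and 846; at a fold over 2, 232 and 272. With the replicate block, 3 of the 10 genes were called lower and the adjusted p was 3.3e-04 for CDKN1C and 3.6e-02 for RBL2; the block changed no call of the 10 genes.

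At a peak FDR under 0.001 the 10 genes kept 6 GM peaks, 6 DM peaks and 5 pairs, 2 of them higher and 0 lower in DM. With fold enrichments of at least 2, 7 GM peaks and 2 higher pairs were left. An overlap of 50% of both peaks left 5 pairs, 1 of them higher. At a ratio over 2 there were 0 lower pairs, as there were without the RB1 peaks inside LPAR6, an alternative chosen after seeing the data. The pooled lists give no depth or replicate error, and each group has 3 cultures, so small differences such as that of E2F4 mRNA were not resolved.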

Other observations

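A few regulators went against the downward direction of the pathway lists and were named after their values were seen. DYRK1A, the kinase that promotes assembly of the DREAM complex, rose from 16.0 ± 1.98 to 22 ± 1.13 FPKM (log2 fold change 0.44, adjusted p = 4.7e-03 by limma). LIN52, the MuvB subunit it phosphorylates, rose from 7.74 ± 0.708 to 9.91 ± 0.568 FPKM (0.32, adjusted p = 9.8e-03). TFDP2, a dimer partner of E2F factors, rose from 7.85 ± 0.896 to 10.7 ± 0.707 FPKM (0.41, adjusted p = 5.8e-03), while its relative TFDP1 fell from 13.9 ± 0.426 to 11.7 ± 0.556 FPKM (-0.23, adjusted p = 1.1e-02). Together with RBL2, the genes DYRK1A, LIN52 and TFDP2 were the members of the pocket protein, E2F and DREAM groups that passed higher in DM. That was 2 of 8 DREAM and MuvB genes and 1 of 5 other E2F and DP factors, beside 16.1% of all tested genes. No group was tested against that share. Each of these genes was below the fold of a call (SD, n = 3 cultures each). Other MuvB subunits passed lower: LIN9 (-0.54, adjusted p = 1.4e-03 by limma), LIN54 (-0.24) and RBBP4 (-0.23).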
